A study of Mus musculus with 6 samples.

Results

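The enzymes that write, maintain and remove DNA methylation form a group of 10 genes, namely the DNA methyltransferases Dnmt1, Dnmt3a and Dnmt3b, their cofactors Dnmt3l, Uhrf1 and Uhrf2, the dioxygenases Tet1, Tet2 and Tet3, and the DNA glycosylase Tdg. They were chosen by name, with earlier results of these data known. Each gene was read by its probe set with the highest mean among those that the platform annotation gives a single symbol. Of the 10 genes, 9 had such a probe set, out of 19938 genes measured in this way. Tdg had none, since its 4 probe sets also name the pseudogene Tdg-ps2, so Tdg has no value here. The arrays came from HM1 mouse embryonic stem (ES) cells kept in 15% serum with the cytokine LIF at 1000 U/ml. Of the 6 samples, 3 had received the pCAGIP.puro vector without an insert (control) and 3 the same vector with mouse Prmt6, the gene of a histone arginine methyltransferase (Prmt6 overexpression). Cells of both groups spent 3 days in puromycin at 1 ug/ml. HM1 is a single cell line, and whether the replicates were grown as separate cultures is not stated in the labels. A p-value here covers the spread among these 6 samples and no more, and that spread may be technical.

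In mammals DNA methylation sits mostly on the cytosine of CpG dinucleotides. Dnmt3a and Dnmt3b place new marks, helped in ES cells by Dnmt3l, which resembles them but has no catalytic activity. Dnmt1 copies the marks to the new strand at replication, where Uhrf1 recruits it to hemimethylated DNA. Tet enzymes oxidize 5-methylcytosine, and Tdg excises the more oxidized forms so that base excision repair can restore cytosine. ES cells express Tet1 and Tet2, and Dnmt3b and Dnmt3l are abundant in the early embryo. What was compared here was the RNA level of these genes with and without the Prmt6 plasmid. No DNA methylation was measured.

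With the Prmt6 plasmid, Dnmt3l, Tet1 and Dnmt3b fell, by 0.34, 0.32 and 0.30 on the log2 scale, which is 1.27-fold, 1.25-fold and 1.23-fold (limma, n = 3 per group). The group that fell therefore held the catalytically inactive partner of the de novo methyltransferases, 1 de novo methyltransferase and 1 demethylating dioxygenase. The other 6 measured genes did not pass, with Dnmt1, Dnmt3a and Tet2 below control on average and Uhrf1, Uhrf2 and Tet3 above it. So 3 of 9 members were called lower at a Benjamini-Hochberg adjusted p under 0.05, against 3.25% of all 19938 genes and 4.57% of the 9971 genes whose mean was at or above the median. Calls in either direction made up 10.3% of all genes. None was called higher by limma, against 7.05% of all genes. At an unadjusted limma p under 0.05 there were 1 higher and 4 lower, against 2814 and 2075 of all 19938 genes. The arrays of the 2 groups did not overlap in 5 of the 9 members, against 29.7% of all genes. The median difference of the 9 members was -0.16, and that of all genes was 0. Of the 647 genes called lower, 494 fell by more than Dnmt3l, and the median fall of those genes was 0.42, so the members' falls were small ones. The calls rest on few arrays. With a single array left out, the number of members called lower went to 0 without control replicate 1, 2 or 3 or without overexpression replicate 2, to 1 without overexpression replicate 3, and stayed at 3 without overexpression replicate 1.

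**Figure D1:**
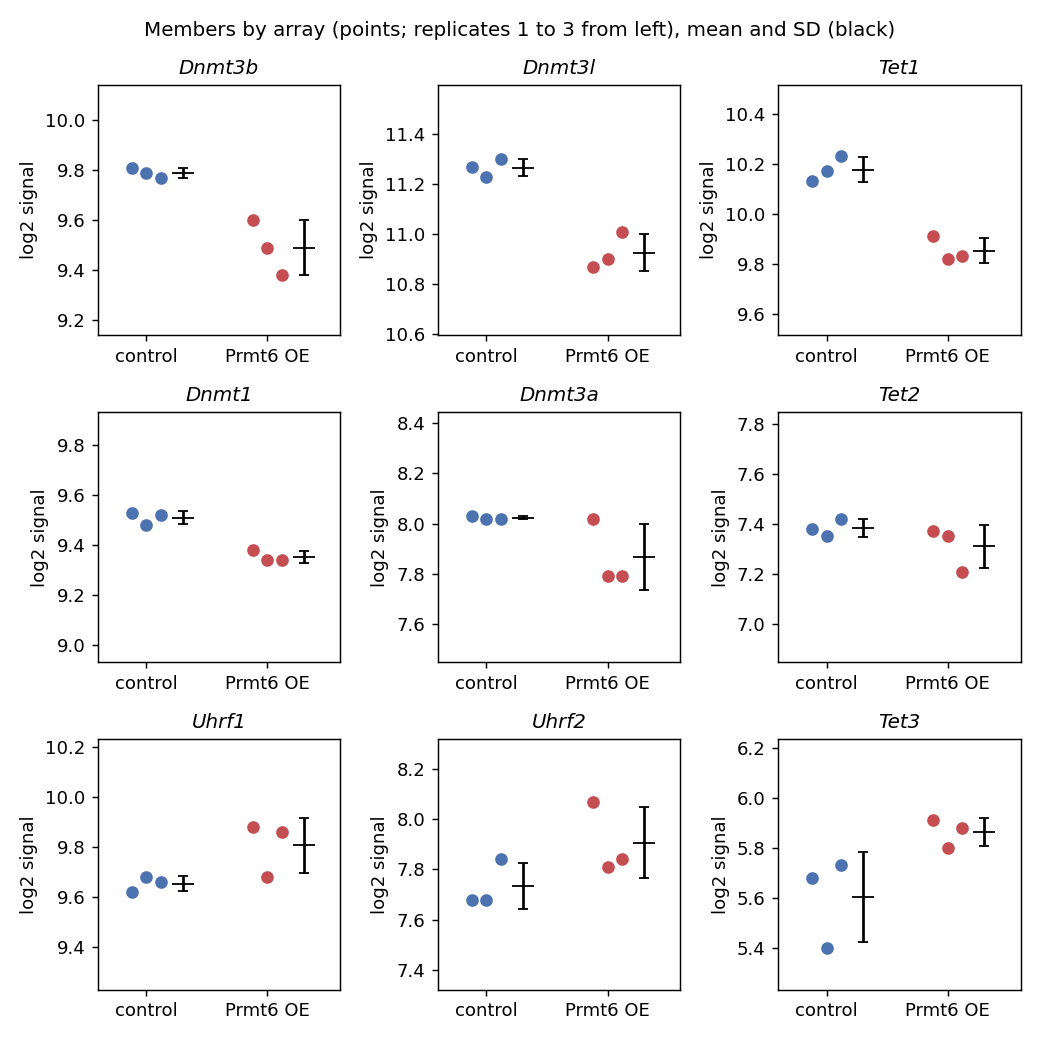
Each panel plots the log2 signal of 1 gene (vertical axis, the same span of 1 log2 unit in every panel) in the 3 control arrays (blue) and the 3 Prmt6 overexpression arrays (red), with the mean and SD in black. The groups do not overlap for Dnmt3b, Dnmt3l, Tet1 and Dnmt1, where overexpression is lower, or for Tet3, where it is higher.

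Dnmt3l, the partner that stimulates Dnmt3a and Dnmt3b, read 11.27, 11.23 and 11.30 in control and 10.87, 10.90 and 11.01 with Prmt6 (log2 signal). All 3 overexpression arrays lay below all 3 control arrays, and the nearest pair was 0.22 apart. The mean went from 11.27 ± 0.035 to 10.93 ± 0.074 (SD, n = 3), a difference of -0.34 ± 0.072 (SE) with a 95% interval from -0.51 to -0.17 (limma adjusted p = 0.0205). The call held without overexpression replicate 1 (adjusted p = 0.0436) or 3 (0.0206) and was lost on leaving out control replicate 1 (0.0815), 2 (0.0593) or 3 (0.0882) or overexpression replicate 2 (0.0723).

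Dnmt3b, a de novo methyltransferase of the early embryo, read 9.81, 9.79 and 9.77 in control and 9.60, 9.49 and 9.38 with Prmt6. The control arrays lay within 0.04 of each other, while the overexpression arrays spread over 0.22, all below control. The mean went from 9.79 ± 0.02 to 9.49 ± 0.11 (SD, n = 3), a difference of -0.30 ± 0.078 (SE) with a 95% interval from -0.48 to -0.12 (limma adjusted p = 0.0464). Of the 3 calls this was the nearest to the threshold. It held without overexpression replicate 1 (0.0271), was lost on leaving out any other single array (0.102 to 0.151), and was lost when arrays were centred on their medians (0.101).

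Tet1, a dioxygenase abundant in ES cells, read 10.13, 10.17 and 10.23 in control and 9.91, 9.82 and 9.83 with Prmt6. Again the groups were apart, with an overexpression maximum of 9.91 under a control minimum of 10.13. The mean went from 10.18 ± 0.05 to 9.85 ± 0.049 (SD, n = 3), a difference of -0.32 ± 0.07 (SE) with a 95% interval from -0.48 to -0.16 (limma adjusted p = 0.0226). It held without overexpression replicate 1 (0.0259) and ended without any other single array (0.054 to 0.102).

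Tet1 is the member with the most separate readings, since 3 probe sets carry its symbol alone. Fitted among all single-symbol probe sets, they differed by -0.32 ± 0.07, -0.28 ± 0.07 and -0.35 ± 0.066 (limma adjusted p = 0.0223, 0.0415 and 0.0120). The second read 10.01, 10.06 and 10.14 in control and 9.81, 9.81 and 9.76 with Prmt6. The third read 10.05, 10.05 and 10.08 in control and 9.74, 9.72 and 9.68 with Prmt6. In each of the 3 probe sets the overexpression arrays lay below the control arrays. The 3 share the same RNA samples, so they repeat the reading of the transcript and are not further replicates of the condition.

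**Figure D2:**
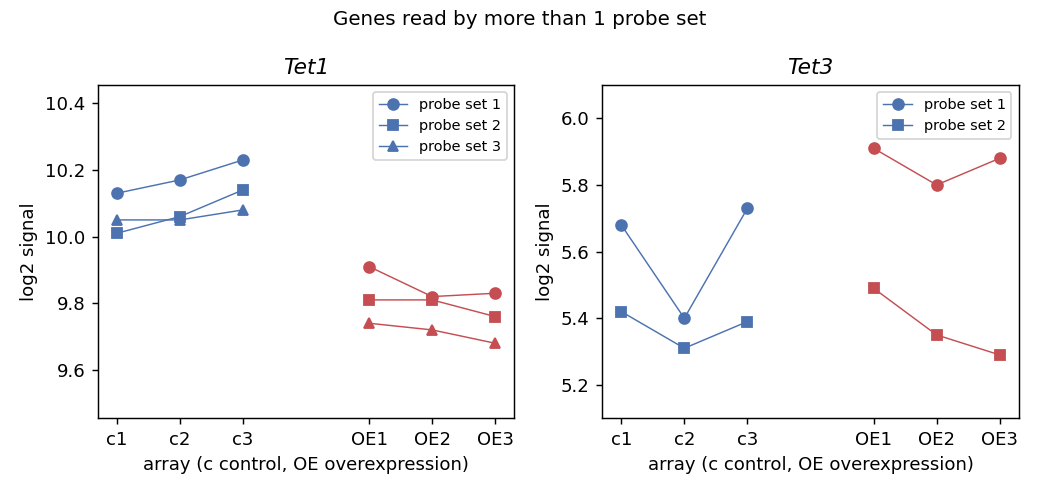
The log2 signal (vertical axis, a span of 1 log2 unit in both panels) of every single-symbol probe set of Tet1 (3 probe sets, left) and Tet3 (2 probe sets, right) is plotted for each array, control in blue and Prmt6 overexpression in red. All 3 Tet1 probe sets sit lower in overexpression, while the Tet3 probe sets differ, the first at 0.26 and the second at 0.0033 above control.

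The bases before the annotated starts of the 3 genes that fell are shown because CpG is the substrate of these enzymes and the genes differ in how much of it they carry there. The windows are the 250 bases before the start, from RefSeq on GRCm38.p6, written 5′ to 3′ along the gene with every CpG in capitals. They lie at chr2:153649199-153649448 (plus strand) for Dnmt3b, chr10:62887325-62887574 (minus strand) for Tet1 and chr10:78042037-78042286 (plus strand) for Dnmt3l, the most upstream of its 3 annotated starts.
Dnmt3b: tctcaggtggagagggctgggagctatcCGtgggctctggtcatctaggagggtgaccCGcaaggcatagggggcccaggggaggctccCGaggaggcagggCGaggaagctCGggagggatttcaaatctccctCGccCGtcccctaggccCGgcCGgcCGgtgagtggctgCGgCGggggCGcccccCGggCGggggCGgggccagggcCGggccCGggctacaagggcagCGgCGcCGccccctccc
Tet1: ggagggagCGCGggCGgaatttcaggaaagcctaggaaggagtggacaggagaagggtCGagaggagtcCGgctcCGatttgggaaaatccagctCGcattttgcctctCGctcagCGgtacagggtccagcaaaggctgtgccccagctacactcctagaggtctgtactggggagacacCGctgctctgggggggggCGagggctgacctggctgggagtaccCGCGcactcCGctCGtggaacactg
Dnmt3l: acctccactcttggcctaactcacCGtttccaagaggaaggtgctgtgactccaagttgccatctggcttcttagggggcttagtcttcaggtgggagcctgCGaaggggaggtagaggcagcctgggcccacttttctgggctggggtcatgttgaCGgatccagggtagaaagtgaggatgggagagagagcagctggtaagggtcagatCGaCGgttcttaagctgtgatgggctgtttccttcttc

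The Dnmt3b window held 21 CpG, a count reached by 16.3% of the 32851 such windows in the table, and its bases were 75.2% G or C. That of Tet1 held 15, reached by 27.3%, and 62.8% G or C. The Dnmt3l window held 5, reached by 55.6%, near the median of 6 over all windows, and its other starts held 4 and 3. The 3 genes called lower thus differed in the CpG counts of their windows. Among the members that did not pass, the window of Tet2 held 51 CpG, reached by 0.067% of windows, and those of Dnmt3a held 38, 40 and 15. Those of Dnmt1 held 2, 7 and 26, those of Uhrf1 10 and 30, that of Uhrf2 23 and that of Tet3 17. The GC box GGGCGG, searched on both strands, was in 12 of the 17 windows of the 10 genes and in 32.7% of all windows. It occurred 3 times in the Dnmt3b window, 1 time in that of Tet1 and 0 times in the Dnmt3l window shown. The windows of the other Dnmt3l starts held it 2 and 0 times. The letters CCAAT, also on both strands, were in 6 of the 17 windows and in 33.8% of all windows, and in none of the windows shown. Both are descriptions of the letters in these windows, and the arrays do not show which start was used. Some of the 17 windows belong to the same gene, and the first and second Dnmt3a windows overlap, so they are not separate readings. Windows of like CpG count were not compared.

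Dnmt1, the maintenance methyltransferase, read 9.53, 9.48 and 9.52 in control and 9.38, 9.34 and 9.34 with Prmt6. The groups did not overlap, as in 12.7% of all genes with overexpression on the lower side, but the difference of -0.16 ± 0.066 (SE, n = 3) did not pass (limma adjusted p = 0.188). Its 95% interval ran from -0.31 to -0.0057. No alternative setting made it pass, and the lowest adjusted p among them was 0.0571.

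Dnmt3a, the other de novo methyltransferase, read 8.03, 8.02 and 8.02 in control and 8.02, 7.79 and 7.79 with Prmt6. Overexpression replicate 1 stood at the control level and the other two 0.23 below it, so the groups met. The difference was -0.16 ± 0.083 (SE, n = 3, 95% interval -0.35 to 0.034, limma adjusted p = 0.3). Without that replicate it was -0.23 and still did not pass (adjusted p = 0.0697).

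Uhrf1, which brings Dnmt1 to newly replicated DNA, read 9.62, 9.68 and 9.66 in control and 9.88, 9.68 and 9.86 with Prmt6. Overexpression replicate 2 equalled the highest control array and the other two lay above it. The difference of 0.15 ± 0.079 (SE, n = 3, 95% interval -0.027 to 0.33) did not pass (limma adjusted p = 0.283). Its relative Uhrf2 read 7.68, 7.68 and 7.84 in control and 8.07, 7.81 and 7.84 with Prmt6. Those groups overlapped, and the difference of 0.17 ± 0.093 (SE, n = 3, 95% interval -0.040 to 0.39) did not pass either (limma adjusted p = 0.305).

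Tet2, the second Tet enzyme of ES cells, read 7.38, 7.35 and 7.42 in control and 7.37, 7.35 and 7.21 with Prmt6. Only overexpression replicate 3 lay outside the control range. Its difference of -0.073 ± 0.075 (SE, n = 3) was within the spread of the arrays (limma adjusted p = 0.615), and the 95% interval from -0.24 to 0.097 still allows a fall near the size of those called.

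Tet3, the Tet enzyme known from the oocyte and zygote, read 5.68, 5.40 and 5.73 in control and 5.91, 5.80 and 5.88 with Prmt6. All overexpression arrays lay above control, as in 17.0% of all genes with overexpression on the higher side, and control replicate 2 stood lowest. The difference of 0.26 ± 0.098 (SE, n = 3, 95% interval 0.035 to 0.49) did not pass (limma adjusted p = 0.144). Its second probe set read 5.42, 5.31 and 5.39 in control and 5.49, 5.35 and 5.29 with Prmt6, at 0.0033 ± 0.079 (limma adjusted p = 0.986), so the 2 probe sets of Tet3 did not give the same reading.

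**Figure D3:**
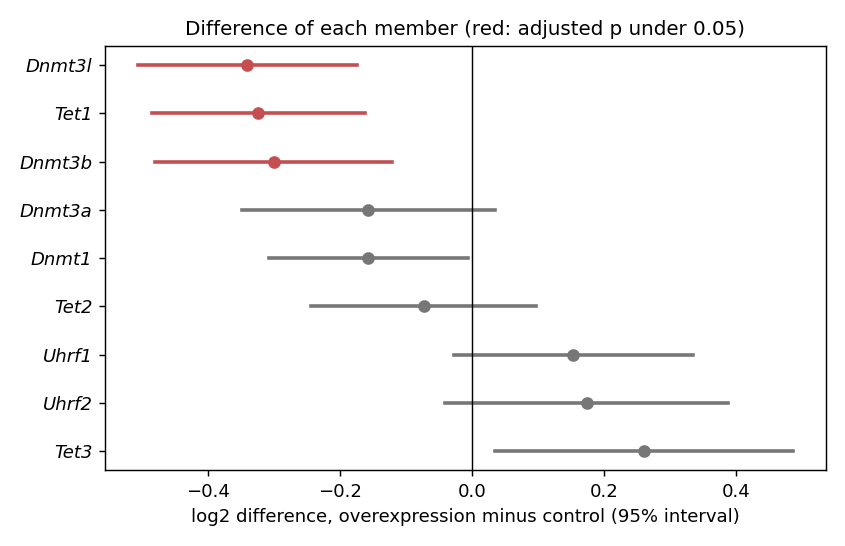
The log2 difference between Prmt6 overexpression and control (horizontal axis) is plotted for each of the 9 measured members as a point with its 95% interval from limma, red where the adjusted p is under 0.05. Dnmt3l, Tet1 and Dnmt3b lie between -0.34 and -0.30, and the other 6 between -0.16 and 0.26.

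Whether related members moved unequally was read from the log2 ratio of 2 genes within each array, which cancels any offset of the array, for 4 pairs. The ratio of Tet1 to Tet2 was 2.75, 2.82 and 2.81 in control and 2.54, 2.47 and 2.62 with Prmt6. It differed by -0.25 ± 0.049 (SE), with all overexpression arrays lower. The ratio of Dnmt3b to Dnmt3a was 1.78, 1.77 and 1.75 in control and 1.58, 1.70 and 1.59 with Prmt6, a difference of -0.14 ± 0.039, again with no overlap. Both had an exact two-sided permutation p = 0.1 (adjusted over the 4 pairs, 0.2), which is the smallest p that 3 arrays against 3 allow, so neither could pass. The ratio of Dnmt3l to Dnmt3a differed by -0.18 ± 0.11 (exact permutation p = 0.2, adjusted 0.267) and went to -0.078 without overexpression replicate 1. The ratio of Uhrf1 to Uhrf2 differed by -0.02 ± 0.082 (exact permutation p = 0.9, adjusted 0.9), from 1.92 ± 0.092 in control to 1.90 ± 0.11 with Prmt6 (SD, n = 3).

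The genes with the profile most like each member that fell were taken by Pearson r over the 6 arrays, as a description, since these arrays and their 2 groups are shared by all genes. Only genes with a mean above the median of gene means were searched, and predicted or provisionally named genes were left out. For Tet1 the most alike were Utp20 (r = 0.998), Oip5 (0.998) and Kdm6a, a histone H3 lysine 27 demethylase (0.998), which differed by -0.22, -0.27 and -0.33. For Dnmt3b they were Psme4 (0.997), Tmem131 (0.996) and Tpcn2 (0.996), at -0.20, -0.25 and -0.28. For Dnmt3l they were Gigyf1 (0.991), Abcd4 (0.990) and Il6ra (0.989), at -0.34, -0.32 and -0.17. The 3 members had no gene in common among these, but lists of 3 genes are too short to compare the members' profiles.

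The settings of the comparison moved the adjusted p of the members more than their size. Over all alternatives the difference lay between -0.40 and -0.29 for Dnmt3l, between -0.38 and -0.28 for Tet1 and between -0.36 and -0.25 for Dnmt3b. Adjusted p ranged from 0.000280 to 0.0882, from 0.000608 to 0.102 and from 0.00317 to 0.151. Each of the 9 members kept its sign in every alternative run. Among the 6 that did not pass, none passed in any alternative, and the lowest adjusted p were 0.0571 for Dnmt1, 0.0697 for Dnmt3a and 0.0778 for Tet3.

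**Figure D4:**
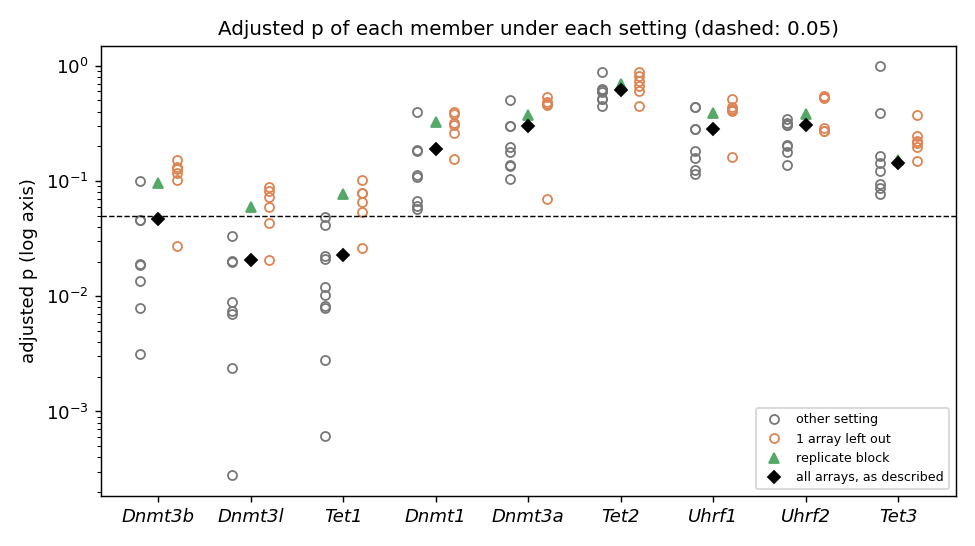
The limma adjusted p of each member (vertical log axis) is plotted with all arrays as described (black diamond), with 1 array left out (orange), with the replicate number as a block (green) and under the other settings (grey), with 0.05 as a dashed line. Dnmt3b, Dnmt3l and Tet1 straddle the line, most of their orange points lie above it, and every point of the other 6 genes is above it.

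Once Tdg has excised an oxidized base, the rest of base excision repair processes the site and restores cytosine, and deaminases and Gadd45 proteins have been linked to demethylation. Of the 17 measured genes among 18 listed, 2 rose, 2 fell and 13 did not pass, with a median of -0.08. Here and for the lists that follow, 7.05% of all genes were called higher and 3.25% lower. At an unadjusted limma p under 0.05, 2814 of all 19938 genes were higher and 2075 lower. Gadd45g, a stress-inducible Gadd45 protein, read 7.52, 7.54 and 7.37 in control and 8.39, 8.34 and 8.54 with Prmt6, a rise of 0.95 ± 0.085 (1.93-fold, limma adjusted p = 0.000231). Its relative Gadd45b rose by 0.62 ± 0.08 (1.54-fold, limma adjusted p = 0.00179), from 8.33 ± 0.047 to 8.95 ± 0.11 (SD, n = 3). Gadd45a, the third of the family, was at -0.09 ± 0.069 without passing. Mbd4, the glycosylase that shares with Tdg the repair of T mispaired with G at CpG, read 7.32, 7.44 and 7.33 in control and 7.02, 6.84 and 6.90 with Prmt6. It fell by 0.44 ± 0.079 (limma adjusted p = 0.00896). Neil3, a glycosylase for oxidized bases, fell by 0.32 ± 0.082 (limma adjusted p = 0.0424), a call lost on leaving out any single array (0.0528 to 0.158), on centring arrays on their medians (0.087) and under quantile normalization (0.0581). The calls of Gadd45g, Gadd45b and Mbd4 held with each single array left out.

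Of 6 methyl-CpG binding proteins, Zbtb38, a zinc finger protein that binds methylated DNA, rose from 6.25 ± 0.14 to 6.86 ± 0.038 (SD, n = 3), by 0.61 ± 0.087 (limma adjusted p = 0.00311). The other 5 did not pass, among them Mbd2 at 0.25 ± 0.069 and Mbd3 at 0.13 ± 0.072. By limma none of the 6 was called lower, and 0 were lower at an unadjusted p under 0.05.

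Of the 24 cofactors and regulators, all measured, 2 rose and 22 did not pass, with a median of -0.072. A count of 2 in 24 is near the 7.05% of all genes that were called higher, so the genes below are given for themselves and not as a result on the list. Ehmt2, the histone H3 lysine 9 methyltransferase G9a, rose by 0.43 ± 0.07 (1.35-fold, limma adjusted p = 0.0059), from 8.28, 8.24 and 8.27 to 8.76, 8.63 and 8.69. Idh2, which makes the 2-oxoglutarate that Tet enzymes need, rose by 0.40 ± 0.069 (1.32-fold, limma adjusted p = 0.00759), from 8.01, 8.10 and 8.09 to 8.49, 8.43 and 8.48. For both genes every overexpression array lay above every control array, and the calls held with each single array left out. By limma none was called lower, and 3 were lower at an unadjusted p under 0.05, namely Setdb1 (-0.25 ± 0.088), Ogt (-0.21 ± 0.074) and Zfp57 (-0.17 ± 0.072), which were picked out after their values were seen. Hells, a remodeller that helps Dnmt3b act on repeats, was at -0.14 ± 0.091, and Usp7, a partner of Uhrf1 and Dnmt1, at -0.14 ± 0.066, without passing.

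Of 16 genes of S-adenosylmethionine and one-carbon supply, which provides the methyl group, 11 were measured. Of these, Gldc, the glycine decarboxylase, rose by 0.29 ± 0.071 and Cbs, which draws homocysteine out of the methyl cycle, fell by 0.33 ± 0.069 (limma adjusted p = 0.0346 and 0.0185). Bhmt, which remethylates homocysteine, fell by 0.30 ± 0.075 (0.0414), and 8 did not pass. The calls of Gldc and Bhmt were lost on leaving out any single array (0.0515 to 0.131 and 0.0594 to 0.157). That of Cbs was lost on leaving out control replicate 1 (0.0717), 2 (0.0854) or 3 (0.0544) or overexpression replicate 2 (0.0547). Bhmt also missed the threshold with arrays centred on their medians (0.0806), under quantile normalization (0.0687), with the mean of its probe sets (0.104) and with a trended and robust variance prior (0.0591).

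Germline genes whose promoters are known to be silenced by DNA methylation in other cells were read as a further list of 18, all measured. Here 4 fell, 14 did not pass and by limma none rose, and the median was -0.10. At an unadjusted limma p under 0.05, 7 were lower and 1 was higher, Rpl10l at 0.35 ± 0.11. Differences lay below 0 in 14 of the 18 and above 0 in 4, against 9886 and 9895 of all 19938 genes. Hormad1, a meiotic chromosome protein, read 7.32, 7.20 and 7.02 in control and 6.68, 6.41 and 6.09 with Prmt6 (a fall of 0.79 ± 0.15, limma adjusted p = 0.0112). Mov10l1, Dazl and Slc25a31 fell by 0.61 ± 0.10, 0.49 ± 0.081 and 0.49 ± 0.084 (limma adjusted p = 0.00691, 0.00614 and 0.00748). Members of the list that did not pass lay on both sides of 0, such as Sycp3 at -0.54 ± 0.17, Ddx4 at -0.29 ± 0.11, Mael at 0.17 ± 0.098 and Tex19.1 at 0.14 ± 0.13.

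**Figure D5:**
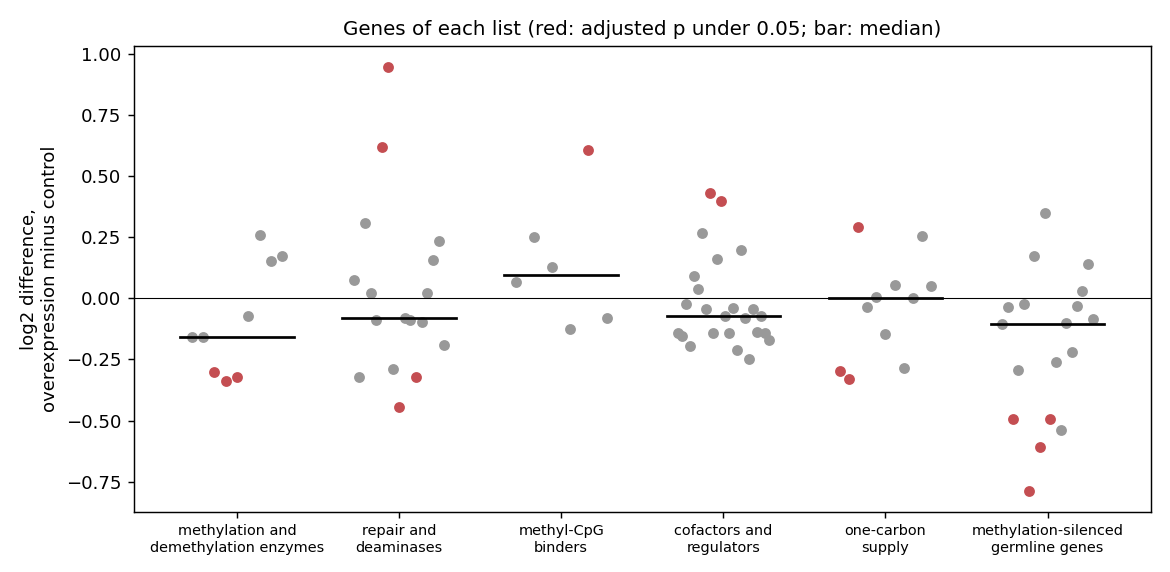
The log2 difference between Prmt6 overexpression and control (vertical axis) is plotted for each measured gene of the methylation and demethylation enzymes and of 5 related lists (horizontal axis, genes in alphabetical order within a list), red where the limma adjusted p is under 0.05, with the list's median as a bar. Gadd45g at 0.95 is the highest point and Hormad1 at -0.79 the lowest.

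Several facts of the whole series stand beside these results. Prmt6 itself, on 1 probe set, ranged from 6.58 to 7.12 in control and from 7.32 to 7.40 in overexpression. It rose by 0.50 ± 0.13 (limma adjusted p = 0.0406), a call that ended without any single array but control replicate 3 (0.0788 to 0.119). Of 16 ES cell markers, 2 rose, 3 fell and 11 did not pass. The falls were those of Tdgf1 (-0.35 ± 0.072), Nanog (-0.34 ± 0.068) and Sox2 (-0.29 ± 0.076), with limma adjusted p of 0.0183, 0.0153 and 0.0485, and the rises those of Tfcp2l1 (0.37) and Nr0b1 (0.27). The Tdgf1 call was lost on leaving out any one control array or overexpression replicate 2 (0.0511 to 0.0864), that of Nanog on leaving out any one control array (0.0552 to 0.0766), that of Tfcp2l1 on leaving out control replicate 1 (0.0593) or 3 (0.0508), and that of Sox2 on leaving out any single array (0.0549 to 0.163) or on median centring (0.111). The summed linear signal of the 16 markers, as log2, was 14.61 to 14.67 in control and 14.63 to 14.64 in overexpression, a sum to which bright genes such as Dppa5a (12.76 to 12.98 over all arrays) contribute most. The corresponding sums were 10.90 to 10.92 against 12.19 to 12.26 for 15 measured fibroblast markers (8 higher, 0 lower). They were 10.56 to 10.62 against 11.44 to 11.49 for 10 extraembryonic endoderm markers (6 higher, 0 lower) and 10.38 to 10.44 against 12.82 to 12.99 for 10 trophoblast markers (6 higher, 0 lower). Bright genes contribute most to these sums too, so the sums do not describe a whole list. Over all arrays Vim ran from 10.27 to 11.95, Sparc from 9.11 to 10.51, Krt8 from 9.01 to 12.10 and Krt18 from 8.20 to 11.51. On the fibroblast list the rises were those of Vim (1.62), Col1a1 (1.34), Col1a2 (0.98), Pdgfrb (0.47), Twist2 (0.45), Dcn (0.44), Col3a1 (0.36) and Col5a1 (0.34). On the endoderm list they were those of Col4a1 (1.49), Sparc (1.28), Dab2 (0.77), Sox17 (0.58), Lamb1 (0.53) and Gata6 (0.43). On the trophoblast list they were those of Krt18 (3.22), Krt8 (2.89), Krt7 (2.34), Hand1 (0.98), Plac1 (0.80) and Eomes (0.55). The Pdgfrb call was lost on leaving out control replicate 1 (limma adjusted p = 0.0567) and that of Sox17 on leaving out any one control array (0.0634 to 0.0869), and the second probe set of Dab2 did not pass (0.20, adjusted p = 0.272). Alternative settings were examined for at most 4 called genes per list. The calls of Twist2, Dcn, Col3a1, Col5a1, Lamb1, Gata6, Plac1, Eomes and Nr0b1 were therefore not examined in this way. On the fibroblast, endoderm and trophoblast lists, the members not named as rising did not pass, among them Lum, Fap, Foxa2, Sox7, Cdx2 and Elf5. None of these markers is listed at 0 on these arrays, which have no true zero. Their part in the falls of Dnmt3l, Tet1 and Dnmt3b, and in the changes of the related lists, was not tested. In bulk RNA, fewer cells of a type and less RNA per cell cannot be told apart.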

How the data were processed

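Per the submitters' processing notes, the deposited values are log2 signals made by the authors with RMA, which corrects background, equalizes arrays and summarizes each probe set. The RMA version is not given in the sources used here. For 35556 probe sets on 6 arrays there were 0 missing values. Array medians ran from 5.60 to 5.62 in control and from 5.54 to 5.59 in overexpression, so this offset follows the groups compared. Detection calls were not used, and precision is limited by how few arrays there are.

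Names came from the platform annotation, which gives 21789 probe sets 1 symbol, 1621 several and 12146 none. By gene identifier 21698 matched the RefSeq table of GRCm38.p6. Each of 19938 genes was read by its highest-mean single-symbol probe set, and 999 genes had more than 1.

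The members and lists were chosen with earlier results of these data known. Groups were compared by lmFit and eBayes (limma 3.58.1, R 4.3.3, two-sided, no filter or covariate), adjusted over all genes by Benjamini-Hochberg at 0.05. The procedure was run on simulated data with planted differences. Its pass conditions were set only on differences larger than the members' falls, so they do not cover falls of that size. Differences are overexpression minus control ± SE. Named genes are all members, Prmt6, from each other list up to 4 called genes of largest change, and the 3 genes most like each called member. The search for the latter covered genes with a mean above the median of gene means, without predicted or provisionally named ones. Other genes given with values were chosen after those values were seen. Same-numbered arrays were checked for pairing. Alternatives were a replicate block, leaving out 1 array, low-value filters, median centring, quantile normalization, other probe set choices, other variance settings and other thresholds. Promoter windows are RefSeq's, without the bases after the start. Figures used matplotlib 3.10.9 in Python 3.11.15.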

Additional observations from a re-analysis of the deposited data

How the results depend on the processing

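The count of 3 members called lower stayed at 3 with both filters on low values, quantile normalization, either other use of the probe sets, a trended and robust prior, array weights and a threshold of 0.1. It was 2 with arrays centred on their medians, and 0 at a threshold of 0.01 and with the replicate block. With 1 array left out it ranged from 0 to 3. The count of members called higher was 0 in all of these. The ratios between members moved by less than the spread between arrays in the alternatives run, and only that of Uhrf1 to Uhrf2 changed sign, from -0.08 to 0.025 with 1 array left out. Over all genes, 1405 were called higher and 647 lower (68.5% higher). With arrays centred on their medians 80.4% of calls were higher, and the median of all genes moved to 0.047. With 1 array left out, genes called higher ranged from 862 to 1232 and genes called lower from 280 to 763. Genes called lower numbered 990 without genes under the 30th percentile, 1079 without those under the median, 1115 with a trended and robust prior, 1098 with array weights and 383 with the replicate block. The cause of these changes was not tested.

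Same-numbered arrays did not deviate together: their correlations over genes were -0.019, -0.016 and -0.12, and those of the other pairs ran from -0.10 to 0.114. The labels do not say whether same-numbered samples were handled together, and these correlations cannot settle it. With the replicate block the adjusted p were 0.0958 for Dnmt3b, 0.0591 for Dnmt3l and 0.0776 for Tet1, and the differences were unchanged at -0.30, -0.34 and -0.32. It also ended the calls of Prmt6 (0.0615), Neil3 (0.105), Cbs (0.0624), Bhmt (0.109) and Gldc (0.1). The same block ended the calls of the ES cell markers that fell, Tdgf1 (0.0666), Nanog (0.0615) and Sox2 (0.116). With 3 arrays a group, the members' differences between -0.16 and 0.26 were not called, which does not show that they are absent.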
